A study of Mus musculus with 11 samples.

Results

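Interferon-stimulated genes were examined in cultured mouse mesenchymal stem cells (MSCs), the stromal progenitors that can form bone, fat and cartilage. The list held 42 named genes, all of which were found by Ensembl identifier among the 28222 genes of the count table. Polyadenylated RNA had been sequenced in 11 libraries of MSCs from young mice (3 to 5 months) and old mice (18 to 22 months), and every culture was kept at 2% oxygen in αMEM with serum. The libraries fell into 4 groups, which were young MSCs of batch A (n = 4), young MSCs of batch B (n = 2), old MSCs of batch B (n = 2) and old MSCs of batch C (n = 3). Batch A held no old and batch C no young libraries, so that only batch B compared the ages without a change of batch. Sex, strain and what the batches stood for were not given in the labels, nor whether replicates were separate animals, and p-values therefore measure the spread between these samples, which may be technical.

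Interferons are secreted proteins that warn cells of viral infection. Type I and type II interferons bind their receptors, Janus kinases phosphorylate STAT proteins, and their complexes enter the nucleus and switch on interferon-stimulated genes. The complex with IRF9 binds a DNA element called the interferon-stimulated response element (ISRE), and other STAT complexes bind the gamma-activated site (GAS). The products detect foreign nucleic acid, block viral translation and assembly, tag proteins with ISG15 and alter the proteasome for antigen presentation, and in stromal cells many of them are made at a low level without infection.

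Promoters of 5 members are shown because they hold the same short element in genes whose levels differed between the batches in unlike ways. Each line gives 250 bases upstream of the RefSeq start site (assembly GRCm38.p6), 5′ to 3′ on the strand of the gene, and capitals mark the ISRE core GAAANNGAAA or its reverse complement TTTCNNTTTC.
Ifit1, chr19:34640639-34640888, plus strand: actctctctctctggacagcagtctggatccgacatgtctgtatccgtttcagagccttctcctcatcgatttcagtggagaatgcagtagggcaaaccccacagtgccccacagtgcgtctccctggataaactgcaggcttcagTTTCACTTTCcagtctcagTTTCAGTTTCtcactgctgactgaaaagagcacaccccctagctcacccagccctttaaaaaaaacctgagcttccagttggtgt
Isg15, chr4:156200819-156201068, minus strand: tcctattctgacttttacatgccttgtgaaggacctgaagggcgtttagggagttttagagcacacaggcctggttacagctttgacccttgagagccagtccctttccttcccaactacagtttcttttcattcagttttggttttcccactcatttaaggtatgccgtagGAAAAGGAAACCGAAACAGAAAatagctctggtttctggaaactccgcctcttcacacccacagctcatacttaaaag
Bst2, chr8:71537473-71537722, minus strand: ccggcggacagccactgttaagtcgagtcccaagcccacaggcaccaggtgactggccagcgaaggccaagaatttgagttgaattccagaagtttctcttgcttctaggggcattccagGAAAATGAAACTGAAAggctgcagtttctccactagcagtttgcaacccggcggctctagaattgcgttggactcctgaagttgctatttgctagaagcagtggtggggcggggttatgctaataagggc
Oas1a, chr5:120907526-120907775, minus strand: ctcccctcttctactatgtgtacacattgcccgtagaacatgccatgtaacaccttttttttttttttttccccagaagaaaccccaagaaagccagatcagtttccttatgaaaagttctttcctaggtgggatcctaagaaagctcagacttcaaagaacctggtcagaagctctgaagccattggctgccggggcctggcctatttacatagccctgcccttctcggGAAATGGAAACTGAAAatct
Gbp7, chr3:142530086-142530335, plus strand: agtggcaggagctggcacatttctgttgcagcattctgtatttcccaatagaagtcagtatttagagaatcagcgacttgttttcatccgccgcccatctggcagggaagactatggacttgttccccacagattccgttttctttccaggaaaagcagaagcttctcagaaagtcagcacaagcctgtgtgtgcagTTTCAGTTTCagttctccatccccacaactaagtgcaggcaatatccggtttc

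RefSeq windows of 300 bases, 250 before and 50 after the start, were found for 31 of the 42 members. No window was used here for Ifi27, Parp14, Zbp1, Rtp4, Iigp1, Usp18, Dhx58, Mx1, Mx2, Oas2 and Parp9. The ISRE core was present in 16 of the 31 members (51.6%), against 3.99% of the 27025 genes with a window and 3.44% of all 32851 windows. The GAS motif TTCNNNGAA, which is its own reverse complement, was present in 9 of the 31 (29.0%), against 9.55% of genes and 8.30% of windows. It stood at position -97 of Psmb8, counted from the start site, whereas the Psmb9 window held neither motif, as did those of 10 further members. In Ifit1 the 2 ISRE cores began at positions -104 and -85, in Isg15 3 overlapping cores began at -78, -72 and -66, and in Bst2 the cores began at -130 and -124, the first of them overlapping a GAS motif that began at -136. Members with the ISRE core had a median log2 fold change with age in batch B of 0.40 (16 tested), and those without had 0.25 (15 tested), which is given as a description only.

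Totals were between 11969336 and 20315934 counts per library, and the smallest level taken as detectable, 3 counts, equalled 0.156 to 0.253 CPM (counts per 1000000 counts of the library, with totals scaled by TMM factors). All 12 MSC markers checked were present in every group, and their summed level was between 39222 and 101976 CPM per library. Most of that sum came from Col1a1 and Col1a2, so that it says little about the other markers. The 18 macrophage and leukocyte markers, Lyz2 and Csf1r among them, were present as well, none was at 0 in any group, and they summed to 896 to 2026 CPM in batch A young, 506 to 1035 in batch B young, 1032 to 1448 in batch B old and 219 to 260 CPM in batch C old. The 8 lymphocyte and plasmacytoid dendritic cell markers summed to at most 0.786 CPM. Fewer cells of a type and less RNA per cell cannot be told apart in such bulk samples, and macrophages themselves express interferon-stimulated genes.

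Levels of the members spanned a wide range. Per kilobase of transcript, Ifi27, a small mitochondrial and nuclear membrane protein, had the highest mean over the 11 libraries (166 CPM per kb) and exceeded 98.4% of protein-coding genes. Bst2, which tethers budding virions to the cell surface, followed with 21.8 CPM per kb and Ddx58, the viral RNA sensor RIG-I, with 10.7 CPM per kb. At the other end Rsad2, Cxcl10, Mx2 and Oasl1 had means of 0.0793, 0.0798, 0.102 and 0.130 CPM per kb. Mx1 stayed under 3 counts in every library and was not tested. From 38 to 41 members reached 3 counts in any one library. In 20 members the gene body overlapped another annotated gene, on the opposite strand in 16 and on the same strand in 5, and it is not given in the sources used here whether strand was used for counting. Values of Psmb9 with Tap1, Psmb8 with Gm20496, Parp9 with Dtx3l, Cxcl10 with Art3, Irf9 with Rnf31, Igtp with Irgm2 and Gbp7 with Gm43802 are therefore uncertain, as are those of the related IFIT, OAS and GBP families, whose copies can share reads.

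**Figure D1:**
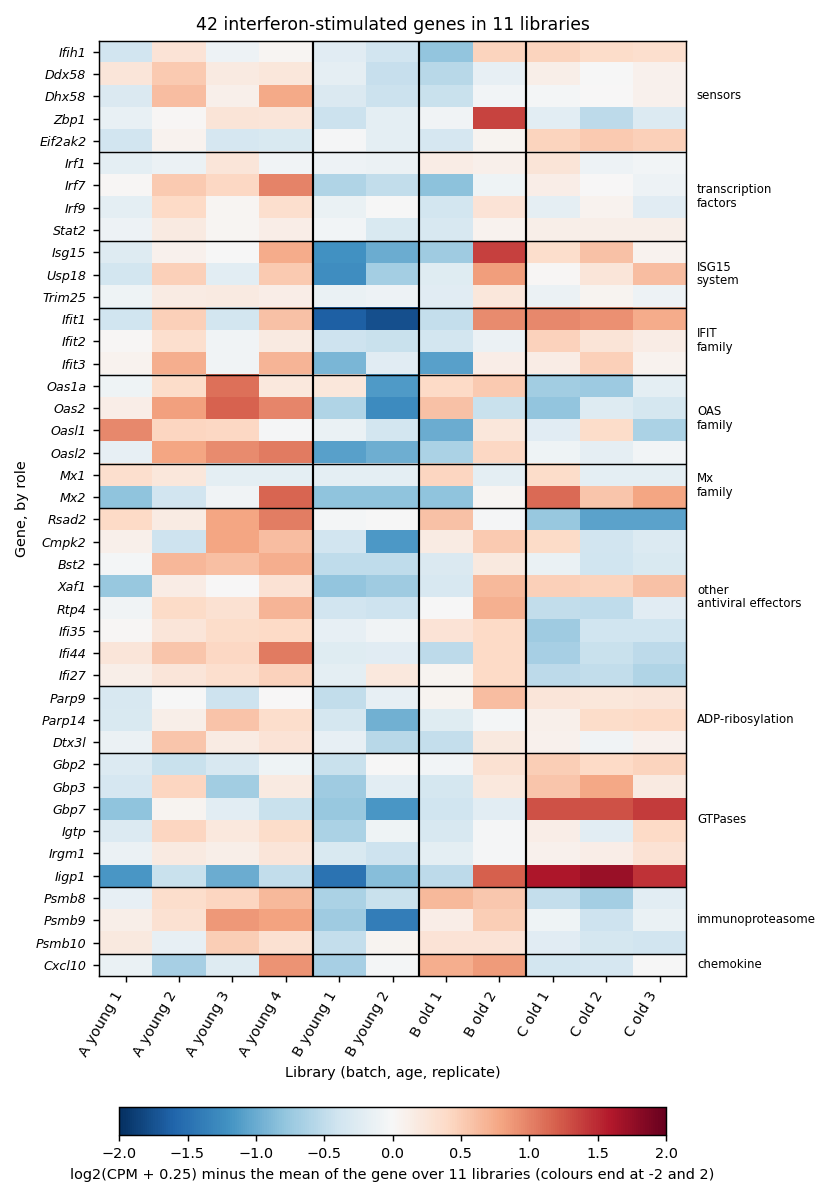
Level of each of the 42 genes (rows, grouped by role) in each of the 11 libraries (columns), as log2(CPM + 0.25) minus the mean of that gene over all libraries; red is higher, blue lower, and colours end at -2 and 2. Both batch B young columns are blue for most rows, batch B old replicate 2 is redder than replicate 1, and in batch C old most cells of the GTPase rows are red and most of the immunoproteasome and OAS family rows blue.

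The groups differed first in that the young MSCs of batch B stood low. They had the lowest of the 4 group means in 29 of 42 members (69.0%), against 13.9% of the 14799 genes with at least 5 counts on average, and the highest in 0 of 42 (12.8% of those genes). The highest mean was found in batch A young for 17 members (40.5%, against 27.1% of those genes). It was found in batch C old for 13 (31.0%, against 33.7%) and in batch B old for 12 (28.6%, against 26.4%), near those shares. The mean deviation of the 42 genes from their own average, on the log2(CPM + 0.25) scale, was -0.49 in each of the batch B young libraries. It was -0.14, 0.23, 0.17 and 0.40 in batch A young replicates 1 to 4, -0.20 and 0.32 in batch B old replicates 1 and 2, and 0.085, 0.050 and 0.064 in batch C old. Old MSCs of batch B were thus above the young MSCs of their own batch but not generally above those of batch A. The mean of batch B old exceeded that of batch A young in 18 of 42 members (42.9%, against 49.5% of genes). Both batch B old libraries exceeded all batch A young libraries in 2 of 42, for which no share over all genes was computed.

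**Figure D2:**
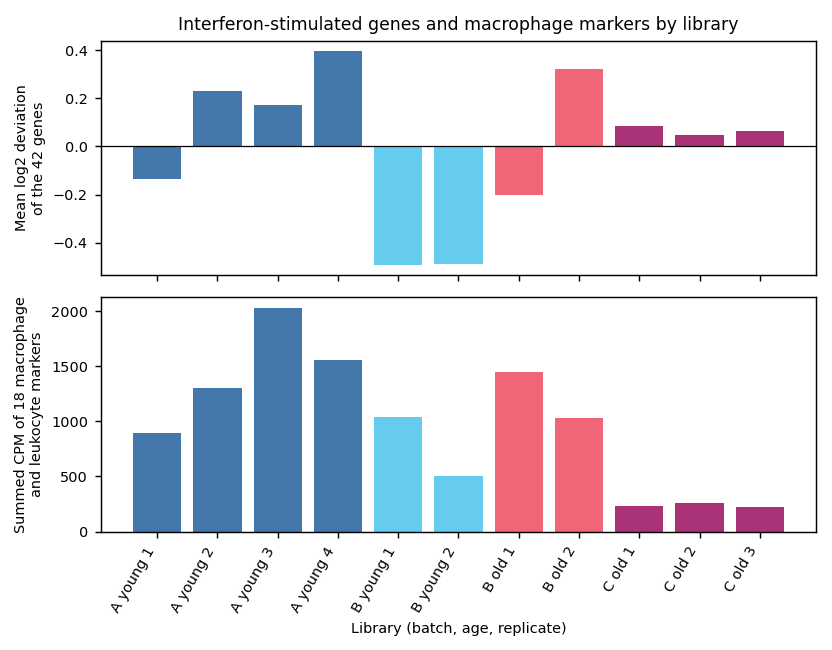
Bars show, for each library on the x axis, the mean log2 deviation of the 42 genes from their own averages (upper panel) and the summed CPM of 18 macrophage and leukocyte markers (lower panel, from 0), coloured by group. Batch B young libraries are lowest in the upper panel (-0.49 each), and batch C old libraries have the lowest marker sums (219 to 260 CPM) with deviations close to 0.

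To compare the ages, old and young MSCs of batch B were contrasted in a model of all 11 libraries with age and batch as terms. Ifit1, Psmb8 and Psmb9 rose in old MSCs, 3 of the 41 members tested, and 0 of 41 fell (edgeR's quasi-likelihood test, adjusted p under 0.05). Over all 16132 genes tested 0.694% were called higher and 1.54% lower. At an unadjusted p under 0.05, 19 members were higher and 0 lower, where the shares of all genes were 7.05% and 9.04%. DESeq2 called 7 higher and 0 lower (1.43% and 2.54% of all genes). The log2 fold change was above 0 in 38 of 41 members (50.5% of all genes), with a median of 0.48 against 0.00 (0.0044) for all genes, or 0.47 with Mx2, which was at 0 in both young libraries, set at its bound. In 23 of 41 members both old libraries exceeded both young ones and in 0 of 41 both were lower, against 19.2% and 20.6% of all genes.

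Much of this difference lay in 1 of the 2 old libraries. Batch B old replicate 2 exceeded replicate 1 in 36 of 42 members (85.7%, against 49.7% of genes) and exceeded both young libraries in 40 of 42. Replicate 1 lay within or below the range of the young libraries in 17 of 42. For the 40 and the 17 of 42 no share over all genes was computed, and they are given as a description only. Without replicate 2 of batch B old, which left 1 library in that group, 28 of 41 members were above 0 with a median of 0.26. Without replicate 1 the median was 0.72. Fits without batch B young replicate 1 or replicate 2, which left 1 library in that group, had medians of 0.47 and 0.51. Calls were lost without single young libraries as well as without single old ones, as given for each gene below. Without batch A young replicate 1, 5 members were called higher, where 1.41% of all genes were called higher. The 18 macrophage and leukocyte markers were also above 0 in 18 of 18 in this contrast, with a median log2 fold change of 0.70, 0 of 18 past the threshold with edgeR (7 at an unadjusted p under 0.05) and 1 of 18 with DESeq2, but their sum was higher in old replicate 1 (1448 CPM) than in old replicate 2 (1032 CPM), the reverse of the order of most members. Their part in the result was not tested further. The 12 MSC markers mostly went the other way in this contrast, with 10 below 0 and a median of -0.36. With edgeR 2 of them were called lower and 0 higher, where 1.54% and 0.694% of all genes were.

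**Figure D3:**
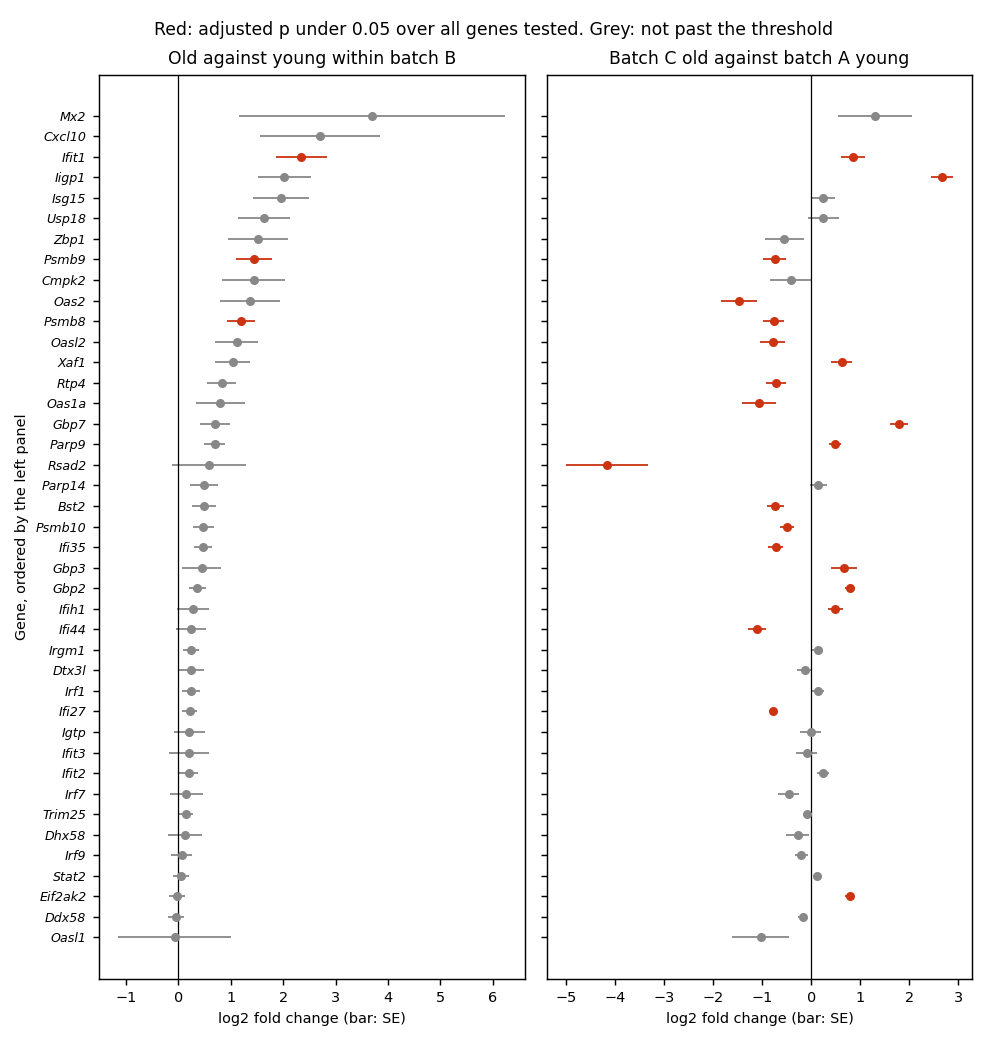
Points are log2 fold changes with SE bars for each tested member (y axis, ordered by the left panel), for old against young MSCs within batch B (left) and for batch C old against batch A young (right); red points passed an adjusted p of 0.05. In the left panel 38 of 41 points lie above 0 and 3 are red; in the right panel 9 red points lie above 0 and 12 below. The point of Mx2 on the left rests on 3 counts against 0 and sets no size.

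Young MSCs of batches A and B were then compared, with the caution that the batch B young libraries are the same that serve as controls in the age contrast. Of 39 members tested, 12 were lower in batch B and 0 higher, against 8.71% of 14840 genes called lower and 9.39% called higher. The 12 were Ddx58, Irf7, Isg15, Ifit1, Ifit3, Oas2, Oasl2, Bst2, Ifi44, Parp14, Psmb8 and Psmb9. At an unadjusted p under 0.05, 20 members were lower and 0 higher (16.5% and 17.4% of all genes), and DESeq2 called 14 lower and 0 higher (9.91% and 9.09% of all genes). The log2 fold change was above 0 in 2 of 39 members (50.9% of all genes), the median was -0.64, in 23 of 39 both batch B libraries were below all 4 of batch A (20.8% of all genes) and in 0 of 39 both were above them (20.1%). Without batch B young replicate 1 or replicate 2, each of which left 1 library in that group, the medians were -0.73 and -0.705. Without batch A young replicate 1, 19 of 39 members were called lower, where 9.97% of all genes were. The calls thus depended on which library was left out. Of the 18 macrophage and leukocyte markers, 8 were lower in batch B with edgeR, 10 with limma-trend and 2 with DESeq2. With edgeR 18 of 18 were below 0 and their median was -1.12, and their part in the difference between the batches was not tested.

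Old MSCs of batch C differed from those of batch B, and from the young MSCs of batch A, in both directions. Against batch B old, 10 of 39 members were higher and 8 lower, where 32.1% and 32.6% of 15651 genes were called. The groups did not overlap in 11 members that were higher and 9 that were lower (38.9% and 37.4% of all genes), and 19 of 39 members were above 0 (51.1%). Against batch A young, a contrast in which age and batch cannot be told apart, 9 of 40 members were higher and 12 lower, where 32.0% and 31.9% of 15021 genes were called. Here 8 members were higher and 13 lower without overlap (29.5% and 35.0% of all genes), and 17 of 40 were above 0 (51.0%). The shares of members called were thus near or below those of all genes. With scaling by total counts the all-gene median shifted on the log2 scale from 0.023 to 0.22 against batch B and from 0.021 to 0.31 against batch A. The split changed to 13 higher and 8 lower against batch B, where 41.4% and 24.4% of all genes were called. Against batch A it changed to 14 higher and 6 lower (48.0% and 18.2% of all genes). A correction for transcript length gave 7 higher and 11 lower against batch B (26.6% and 36.3% of all genes). Against batch A it gave 7 higher and 16 lower (27.1% and 37.8%). Members called higher in batch C than in batch B had longer transcripts (median 3825 nt, from 2476 to 7417 nt) than those called lower (median 1872 nt, from 977 to 3325 nt). In the same contrast 18 of 18 macrophage and leukocyte markers were lower in batch C (median log2 fold change -2.77), and 17 of 18 were lower than in batch A young (median -3.10). The part of these markers in the members' differences was not tested.

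Some of these calls rested on single libraries. Against batch B old, the median log2 fold change of the members was -0.16 without batch B old replicate 1 and 0.46 without batch B old replicate 2. Each of these 2 fits left 1 library in that group, and the all-gene median was 0.032 and 0.034. Without batch C old replicate 1, 6 members were higher and 7 lower (30.0% and 30.8% of all genes). Without batch C old replicate 3 the counts were the same (29.1% and 29.8% of all genes). DESeq2 called 5 higher and 6 lower (26.8% and 29.2% of all genes). Eif2ak2, Ifit2 and Gbp7, 3 of the 10 higher calls, and Oas1a, Ifi35, Ifi27, Psmb8, Psmb10 and Cxcl10, 6 of the 8 lower calls, passed in every fit without 1 library in which they were tested. Against batch A young this held for 6 of the 9 higher and 9 of the 12 lower calls, the others being Ifih1, Xaf1 and Gbp3 among the higher and Oas1a, Oasl2 and Psmb9 among the lower. Cxcl10 against batch B old was tested in only 3 of 5 such fits, and Rsad2 against batch A young in 4 of 7. The filter on low counts dropped both genes from the other fits, so that passing in those that remained says little.

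Among the sensors of foreign nucleic acid, 0 of 5 passed the threshold with age in batch B with edgeR or DESeq2, and 1 was higher at an unadjusted p under 0.05. Ddx58 had 47.9, 58.6, 45.9 and 47.6 CPM in the 4 batch A young libraries, in the order of their replicate numbers as in all values below, 36.0 and 29.6 CPM in batch B young, 27.5 and 36.3 CPM in batch B old and 43.9, 40.2 and 43.2 CPM in batch C old. Every batch A library was thus above all others of the series, the ages in batch B overlapped (log2 fold change -0.044 ± 0.15 (SE), adjusted p = 0.915), and batch B was below batch A in young MSCs (-0.58 ± 0.14, adjusted p = 0.0153). Eif2ak2, the kinase PKR that stops translation when bound by double-stranded RNA, had 26.4, 36.1, 27.3 and 28.0 CPM in batch A young, 34.2 and 30.2 in batch B young, 27.4 and 36.1 in batch B old and 47.4, 49.9 and 48.1 in batch C old. The ages of batch B overlapped (-0.024 ± 0.16, adjusted p = 0.957), and the level was higher in batch C than in batch B (0.61 ± 0.10, adjusted p = 2.63e-04) and than in batch A (0.78 ± 0.10, adjusted p = 2.39e-05). Zbp1, which recognises nucleic acids in the Z form, had 0.365 and 0.477 CPM in the young libraries of batch B and 0.539 and 1.87 CPM in batch B old, so that its age difference (1.52 ± 0.56, adjusted p = 0.186) came mainly from 1 library. Ifih1, a sensor of long double-stranded RNA, was higher in batch C old than in batch A young (0.49 ± 0.16, adjusted p = 0.0150). Dhx58, which modulates both RNA helicase sensors, passed the threshold in none of the 4 contrasts.

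Of the 4 transcription factors, only Irf7 passed the threshold in any of the 4 contrasts. Irf9, the DNA-binding partner of the STAT proteins, ranged from 21.02 to 35.9 CPM over the 11 libraries, Stat2 from 22.4 to 32.1 CPM and Irf1, an early factor of the interferon response, from 11.6 to 15.8 CPM. Irf7, which drives interferon alpha genes, had 5.26, 7.52, 6.94 and 10.5 CPM in batch A young and 3.34 and 3.61 CPM in batch B young without overlap (log2 fold change -1.09 ± 0.28 (SE), adjusted p = 0.0186), and 2.83 and 4.88 CPM in batch B old (0.15 ± 0.32, adjusted p = 0.855 for age).

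The ISG15 system attaches the ubiquitin-like protein ISG15 to other proteins. Isg15 itself had 2.66, 3.46, 3.22 and 5.61 CPM in batch A young, 1.25 and 1.50 CPM in batch B young, 1.89 and 8.75 CPM in batch B old and 4.18, 4.98 and 3.41 CPM in batch C old. The old library at 8.75 CPM was the highest of the series and the other old library of its batch lay below every batch A library. The age difference missed the threshold with edgeR (log2 fold change 1.96 ± 0.54 (SE), adjusted p = 0.0723) and passed it with DESeq2 (adjusted p = 0.00833). Neither tool called that of Usp18, the protease that removes ISG15 (1.63 ± 0.50, adjusted p = 0.109 with edgeR). Usp18 had 0.521 and 0.885 CPM in the young libraries of batch B and 1.28 and 3.01 CPM in batch B old, again without overlap. Against batch A young, batch B young was lower for Isg15 (-1.41 ± 0.36, adjusted p = 0.0178) and not past the threshold for Usp18 (-1.32 ± 0.46, adjusted p = 0.0610). Trim25, a ubiquitin ligase that activates RIG-I, passed in no contrast and ranged from 32.3 to 44.4 CPM.

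Ifit1 belongs to a family of proteins that bind the ends of viral RNA, and its gene lies at chr19:34640871-34650009 on the plus strand (GRCm38, GENCODE M21 annotation). It had 2.66, 5.07, 2.73 and 5.52 CPM in batch A young, 0.990 and 0.885 CPM in batch B young, 2.49 and 7.15 CPM in batch B old and 7.24, 6.94 and 6.17 CPM in batch C old. Both batch B young libraries were below every other library, and the 2 old libraries of the batch lay far apart. Ifit1 rose with age in batch B (log2 fold change 2.35 ± 0.49 (SE), adjusted p = 0.0179), 5.08-fold, a call that was lost without batch B young replicate 1 and without batch B old replicate 2, where the log2 fold change was 1.39. It was lower in batch B than in batch A in young MSCs (-2.04 ± 0.40, adjusted p = 0.00622) and higher in batch C old than in batch A young (0.85 ± 0.24, adjusted p = 0.00866). Of the relatives of Ifit1, Ifit2 had 8.65 and 8.44 CPM in the young libraries of batch B and 8.89 and 10.7 CPM in batch B old (0.20 ± 0.18, adjusted p = 0.629) and was higher in batch C than in batch B (0.54 ± 0.14, adjusted p = 0.00480). Ifit3 was lower in batch B than in batch A in young MSCs (-0.95 ± 0.30, adjusted p = 0.0459), and its ages in batch B overlapped (0.20 ± 0.39, adjusted p = 0.844).

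**Figure D4:**
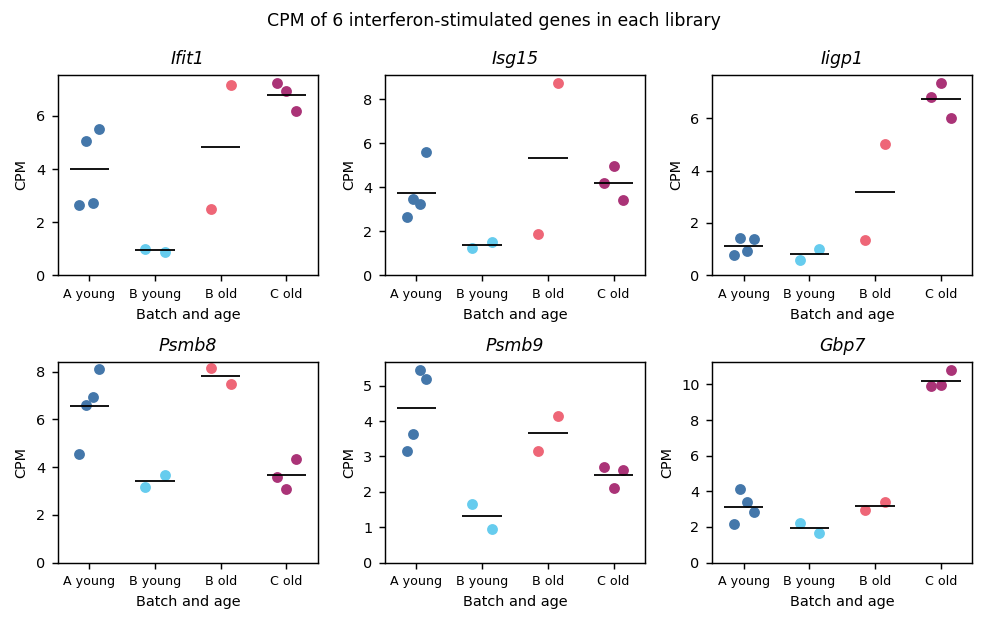
CPM (y axis, from 0) of Ifit1, Isg15, Iigp1, Psmb8, Psmb9 and Gbp7 in each library (points) by group (x axis), with the group mean as a line; n = 4, 2, 2 and 3. For Ifit1, Isg15 and Iigp1 the 2 batch B old points lie far apart, for Psmb8 and Psmb9 they lie together above batch B young, and for Gbp7 the 3 batch C old points (9.89 to 10.8 CPM) lie above all others.

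The OAS family makes the second messenger that activates the antiviral ribonuclease RNase L. With edgeR and with DESeq2 0 of its 4 members passed the threshold with age in batch B, 2 were higher at an unadjusted p under 0.05, and the largest values were those of Oas2 (1.37 ± 0.58, adjusted p = 0.253) and Oasl2 (1.11 ± 0.41, adjusted p = 0.177). Oas2 had 1.11, 1.94, 2.56 and 2.19 CPM in batch A young, 0.573 and 0.272 in batch B young, 1.62 and 0.668 in batch B old and 0.471, 0.786 and 0.726 in batch C old. Here batch A stood above batch B young and batch C old without overlap (-2.10 ± 0.49, adjusted p = 0.0133 for batch B and -1.47 ± 0.37, adjusted p = 0.00340 for batch C). Oasl2, a relative with ubiquitin-like domains, had 3.88, 7.77, 8.67 and 9.34 CPM in batch A young and 1.93 and 2.11 CPM in batch B young (-1.84 ± 0.35, adjusted p = 0.00519). Oas1a was lower in batch C than in batch B old (-1.14 ± 0.30, adjusted p = 0.00527) and than in batch A young (-1.06 ± 0.34, adjusted p = 0.0164), with 2.43 and 2.67 CPM in batch B old and 1.00, 0.982 and 1.52 CPM in batch C old. Oasl1, a repressor of Irf7 translation, reached at most 0.720 CPM and passed in no contrast in which it was tested.

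Several antiviral genes were at the limit of detection. Mx2, an antiviral GTPase related to dynamin, had 0 and 0 counts in the batch B young libraries, 0 and 3 counts in batch B old and 12, 6 and 7 counts in batch C old. The 25 counts of batch C against 3 of batch B old gave a ratio of 5.40 (95% interval 1.65 to 27.9, counting error only). Mx2 was called higher there with edgeR (adjusted p = 0.0277), but the call was lost with DESeq2 and without any 1 of batch B old replicate 1, batch C old replicate 1 and batch C old replicate 3. No size is given for age, since both groups were at or under 3 counts per library, although the fitted value of Mx2 is among the 38 above 0. Rsad2, the antiviral enzyme viperin, had 8, 4, 8 and 10 counts in batch A young and 1, 0 and 0 counts in batch C old, a ratio of 0.0393 with a 95% interval of 0.00096 to 0.237. Cmpk2, a mitochondrial nucleotide kinase encoded beside it, had between 0.204 and 1.49 CPM and passed in no contrast. Cxcl10, the chemokine that attracts activated T cells, had 0 and 2 counts in batch B young and 6 and 7 counts in batch B old, a ratio of 7.39 (95% interval 1.67 to 67.4), which did not pass the test across genes (adjusted p = 0.254). It was lower in batch C old than in batch B old with edgeR (adjusted p = 0.0173), at 1, 1 and 2 counts. That call was lost with DESeq2 and in the fit of all libraries by group.

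Of the 8 other antiviral effectors, 6 were lower and 1 was higher in batch C old than in batch A young with edgeR and with DESeq2, where 31.9% of all genes were called lower and 32.0% higher. Ifi27 had 170.0, 187, 199 and 216 CPM in batch A young, 137 and 183 CPM in batch B young, 164 and 207 CPM in batch B old and 109, 112 and 104 CPM in batch C old. All 3 batch C libraries were below every other library, against batch B old (-0.78 ± 0.088, adjusted p = 9.67e-06) and batch A young (-0.78 ± 0.086, adjusted p = 6.44e-06), whereas the ages in batch B overlapped (0.21 ± 0.15, adjusted p = 0.508). Bst2 had 15.9, 26.1, 24.9 and 27.3 CPM in batch A young, 11.5 and 11.4 CPM in batch B young, 13.4 and 18.8 CPM in batch B old and 14.9, 12.4 and 13.3 CPM in batch C old. It was lower than in batch A both in batch B young (-1.01 ± 0.21, adjusted p = 0.00773) and in batch C old (-0.73 ± 0.17, adjusted p = 0.00204). Rtp4, Ifi35 and Ifi44 had log2 fold changes of -0.72, -0.73 and -1.10 in batch C old against batch A young, all past the threshold. Xaf1, a partner of apoptosis inhibitors, went the other way, with 4.04, 7.77, 7.02 and 8.61 CPM in batch A young and 9.77, 9.56 and 10.6 CPM in batch C old (0.62 ± 0.21, adjusted p = 0.0192), and it had 3.96 and 4.15 CPM in the young libraries of batch B and 5.52 and 11.1 CPM in batch B old (1.03 ± 0.33, adjusted p = 0.118 with edgeR and 0.0494 with DESeq2). The call of Xaf1 against batch A was lost without batch C old replicate 1 or without batch C old replicate 3.

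Parp9 and Parp14 act in ADP-ribosylation, and the ubiquitin ligase Dtx3l works as a partner of Parp9. Parp9 had 10.9, 13.7, 10.2 and 13.9 CPM in batch A young, 9.75 and 12.3 CPM in batch B young, 14.3 and 21.3 CPM in batch B old and 16.3, 16.1 and 16.3 CPM in batch C old. Both groups of old libraries lay above both groups of young ones. The difference in batch B missed the threshold with edgeR (0.70 ± 0.20, adjusted p = 0.0846) and passed it with DESeq2 (adjusted p = 0.0425), and it passed with both for batch C old against batch A young (0.48 ± 0.12, adjusted p = 0.00457). Dtx3l, which overlaps Parp9 on the opposite strand, had 10.1 and 7.62 CPM in the young libraries of batch B and 8.08 and 13.0 CPM in batch B old with overlap (0.24 ± 0.24, adjusted p = 0.658). Parp14 was lower in batch B than in batch A in young MSCs (-0.83 ± 0.26, adjusted p = 0.0393) and higher in batch C than in batch B old (0.44 ± 0.14, adjusted p = 0.0167). The latter call was lost with the length correction, with the replicate number as a block and in the fit of all libraries by group. It was also lost without any 1 of batch B old replicate 1, batch C old replicate 2 and batch C old replicate 3.

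Of the 6 interferon-inducible GTPases, which coat the vacuoles of intracellular pathogens, 4 were higher and 0 lower in batch C old than in batch A young with edgeR and with DESeq2, where 32.0% of all genes were called higher. Against batch B old, 5 of 6 were called higher with edgeR (32.1% of all genes), 4 with limma-trend and 1, Gbp7, with DESeq2. Gbp7, at chr3:142530342-142550149 on the plus strand, had 2.16, 4.14, 3.39 and 2.84 CPM in batch A young, 2.24 and 1.63 CPM in batch B young, 2.96 and 3.41 CPM in batch B old and 9.89, 9.95 and 10.8 CPM in batch C old. The 3 batch C libraries were above all 8 others, 3.19-fold against batch B old (log2 fold change 1.67 ± 0.17 (SE), adjusted p = 3.27e-06) and 3.46-fold against batch A young (1.79 ± 0.19, adjusted p = 4.52e-06), and the calls were kept without any 1 library. Iigp1 had 0.776, 1.44, 0.908 and 1.38 CPM in batch A young, 0.573 and 1.02 CPM in batch B young, 1.35 and 5.01 CPM in batch B old and 6.83, 7.33 and 6.02 CPM in batch C old. It was 6.35-fold higher in batch C old than in batch A young (2.67 ± 0.23, adjusted p = 7.11e-07), and in batch B both old libraries exceeded both young ones without passing the threshold with edgeR (2.02 ± 0.51, adjusted p = 0.0516), whereas DESeq2 called the difference (adjusted p = 0.00648). Its call against batch B old (1.08 ± 0.35, adjusted p = 0.0185) was lost without batch B old replicate 1 or without batch C old replicate 1. Gbp2 had 29.1, 27.2 and 28.3 CPM in batch C old and 17.0, 15.03, 16.4 and 19.3 CPM in batch A young (0.80 ± 0.10, adjusted p = 1.45e-05). The call of Gbp2 against batch B old (0.30 ± 0.11, adjusted p = 0.0267) was lost without batch B old replicate 1, without batch C old replicate 1 or without batch C old replicate 3. The values of Gbp3 and Irgm1 against batch B old (0.60 ± 0.25, adjusted p = 0.0494 and 0.28 ± 0.11, adjusted p = 0.0393) also passed the threshold but lost it without batch B old replicate 1 and without either of 2 batch C libraries (replicates 1 and 2 for Gbp3, replicates 2 and 3 for Irgm1). Igtp passed in none of the 4 contrasts, and with age in batch B 0 of the 6 GTPases passed with edgeR, where 3 were higher at an unadjusted p under 0.05, and 1 passed with DESeq2.

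The immunoproteasome subunits replace the constitutive catalytic subunits and change the peptides cut for antigen presentation. All 3 were higher in the old libraries of batch B than in its young libraries and than in the old libraries of batch C, without overlap. Psmb8, at chr17:34197721-34201454 on the plus strand, had 4.54, 6.59, 6.94 and 8.12 CPM in batch A young, 3.18 and 3.68 CPM in batch B young, 8.15 and 7.48 CPM in batch B old and 3.59, 3.08 and 4.35 CPM in batch C old. Psmb9, at chr17:34181987-34187764 on the minus strand, had 3.16, 3.63, 5.45 and 5.20 CPM in batch A young, 1.67 and 0.953 CPM in batch B young, 3.17 and 4.14 CPM in batch B old and 2.71, 2.10 and 2.61 CPM in batch C old. In both genes the 2 old libraries of batch B lay close to each other, above the young libraries of batch B and within or near the range of batch A. Both rose with age in batch B, Psmb8 2.29-fold (log2 fold change 1.19 ± 0.26 (SE), adjusted p = 0.0238) and Psmb9 2.72-fold (log2 fold change 1.44 ± 0.35 (SE), adjusted p = 0.0407). The call of Psmb8 was lost without any 1 of batch B young replicate 1, batch B old replicate 1 and batch B old replicate 2, with log2 fold changes between 1.09 and 1.29 over the fits without 1 library. The call of Psmb9 was lost in 7 of 11 such fits, those without any 1 of the 4 batch B or the 3 batch C libraries, with log2 fold changes between 1.12 and 1.93, and it also missed the threshold with the replicate number as a block (adjusted p = 0.0504). In batch C old both were lower than in batch A young (-0.76 ± 0.22, adjusted p = 0.00771 for Psmb8 and -0.74 ± 0.24, adjusted p = 0.0154 for Psmb9), and Psmb8 was lower than in batch B old (-1.10 ± 0.19, adjusted p = 2.74e-04). Psmb10 had 8.91 and 12.9 CPM in batch B young, 15.2 and 15.1 CPM in batch B old and 10.5, 9.69 and 9.50 CPM in batch C old, with 0.48 ± 0.20, adjusted p = 0.256 for age and -0.61 ± 0.12, adjusted p = 6.03e-04 for batch C against batch B. The scaling by total counts took the calls of all 3 subunits against batch A below the threshold. The macrophage and leukocyte marker sums were 506 to 1035 CPM in batch B young, 1032 to 1448 CPM in batch B old and 219 to 260 CPM in batch C old, and their part in these differences was not tested.

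Upstream of the members, the ligands were at the limit of detection and the receptors were present. Of 21 interferon ligand genes on the list, 3 were in the table, with 1 and 0 counts of Ifna4 in the batch B old libraries, 0 and 1 counts of Ifng in the batch B young libraries and no count of either in the other groups. Together with Ifnz the ligands summed to at most 0.545 CPM in a library, and the other ligands, Ifnb1 among them, were not analysed here. Of the 9 receptors and kinases, 0 passed with age in batch B with edgeR or DESeq2, against 2.23% of all genes called in either direction, and 1 was higher and 2 lower at an unadjusted p under 0.05. Jak1, the kinase shared by all interferon receptors, had 318 and 268 CPM in the young libraries of batch B and 278 and 259.8 CPM in batch B old. Ifnar1 and Ifnar2, the chains of the type I receptor, had log2 fold changes of -0.044 and -0.39, and Ifngr1 and Ifngr2 of the type II receptor had 0.08 and 0.082. Tyk2, the kinase bound to Ifnar1, was lower in both old libraries without passing (-0.46 ± 0.14, adjusted p = 0.0984). Jak2, Il10rb and Ifnlr1 had log2 fold changes of 0.29, 0.17 and -0.62. Of 11 upstream sensors and adaptors, 0 passed with age in batch B with edgeR or DESeq2, and 1 was higher and 1 lower at an unadjusted p under 0.05. Among them were Irf3, the factor that starts interferon transcription (-0.057 ± 0.13, adjusted p = 0.866), and Mavs, the adaptor of RIG-I (-0.26 ± 0.16, adjusted p = 0.439). Of 11 inhibitors, 0 passed with edgeR and 1 was lower with DESeq2, and 1 was higher and 2 lower at an unadjusted p under 0.05. Samhd1, which degrades nucleotides, had -0.39 ± 0.11, adjusted p = 0.0717, and Socs3, an inhibitor of the Janus kinases, had -0.063 ± 0.17, adjusted p = 0.888.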

How the data were processed

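Polyadenylated RNA of cultured mouse MSCs was measured in 11 libraries, grouped by age and batch from the sample labels. The authors deposited raw counts per Ensembl gene and library, in whole numbers without normalisation, on mm10 (GRCm38). Aligner, counting tool, annotation release, strand setting and handling of multiply mapped reads were not given in the sources used here, so that reads of overlapping or near-identical genes could have been shared or lost. The paper that was read describes another comparison and guided only the style.

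The 42 genes, their roles and the other lists were chosen with earlier results of these data known. Named were all members, the receptors and kinases, and of the other lists the genes past the threshold for age in batch B with at most 4 more of the highest CPM per kilobase. A gene upstream of the members is not reported here.

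Counts were tested with edgeR 4.0.16 (quasi-likelihood test, TMM factors, filterByExpr with a minimum count of 5, R 4.3.3) over all genes, with Benjamini-Hochberg adjustment and a threshold of 0.05. Age was fitted with batch over all libraries, and batch contrasts in the libraries of the groups compared. CPM used TMM-scaled totals. SEs were the log2 fold change divided by the square root of F. Intervals of ratios cover counting error only. No 2 libraries agreed within sampling noise. Scripts were tested on simulated data. Alternatives were limma-trend (limma 3.58.1), DESeq2 1.42.0, RLE factors, total counts, no filter, a minimum count of 10, thinned counts, the replicate number as a block, other sets of libraries in the fit, leaving out each library, and a transcript length correction, which was chosen after seeing the data. Positions and the lengths of the longest transcripts came from GENCODE M21, motifs and promoters from RefSeq (GRCm38.p6).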

Additional observations from a re-analysis of the deposited data

Results flagged for a closer look

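Within batch A young, the only group of at least 4 libraries, the highest library of 2 members lay far from the other 3 by Dixon's ratio of the gap to the whole range. Ddx58 had 58.6 CPM in batch A young replicate 2, with a ratio of 0.846, where the other 3 libraries had 47.9, 45.9 and 47.6 CPM. Eif2ak2 had 36.1 CPM in the same library, with a ratio of 0.835, where the other 3 had 26.4, 27.3 and 28.0 CPM. Such a ratio arises by chance in about 1 of 20 groups, and 42 members were examined. The lower level of Ddx58 in batch B young and the higher level of Eif2ak2 in batch C old kept their calls without this library.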

How the results depend on the processing

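For age in batch B the 3 higher calls became 7 with DESeq2, 10 without a filter on low counts and 0 in batch B alone, and lay between 0 and 6 when 1 library was left out. The median log2 fold change of 0.48 was -0.0054 without the batch term, where Psmb8 (-0.028) and Psmb9 (-0.16) changed sign, and lay between 0.26 and 0.72 without 1 library. For young MSCs of batch B against batch A, the 12 lower calls lay between 0 and 19 and the median between -0.80 and -0.59 without 1 library. For batch C against batch B old, the 10 higher calls were 5 with DESeq2 and 5 in the fit of all libraries by group, and lay between 3 and 18 without 1 library, where the 8 lower calls lay between 6 and 15 and the median between -0.16 and 0.46. Isg15 there lay between -1.06 and 1.14, and Parp14 was -0.015 with the length correction. For batch C old against batch A young, scaling by total counts gave 14 higher and 6 lower (48.0% and 18.2% of all genes). The median of the members was then 0.18, against 0.31 for all genes. The median of the members was -0.31 with the length correction and -0.20 in the fit of all libraries by group, and lay between -0.19 and -0.021 without 1 library. By their construction, fits without 1 library or of batch B alone hold fewer samples; for the other alternatives the cause was not tested.

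Deviations of same-numbered libraries correlated weakly, at 0.037 across ages in batch B, at -0.11 and -0.077 between the young groups and between -0.0055 and 0.044 elsewhere. With 2 libraries per group, deviations in batch B mirror each other and give a single value. It cannot decide whether the samples were paired. With the replicate number as a block, young MSCs of batch B had 3 lower calls and a median of -0.54, and 3 members were called higher with age in batch B, which were Ifit1, Psmb8 and Iigp1 in place of Psmb9. No other summary of calls moved by over 1.5 times under the block. The 6 lower calls of batch C old against batch A young that were lost with total counts were Oas1a, Oasl2, Rtp4, Psmb8, Psmb9 and Psmb10. At these depths the levels of Mx1, Mx2, Rsad2, Oasl1 and Cxcl10 were limited by counting error.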

Other observations

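Further interferon-stimulated genes outside the list were also examined. Of 57 tested among 64 in the table, Slfn2 and Ifi27l2a rose with age in batch B and 0 fell, against 0.694% and 1.54% of all genes. At an unadjusted p under 0.05, 15 were higher and 2 lower (7.05% and 9.04% of all genes), and DESeq2 called 4 higher and 0 lower (1.43% and 2.54%). The log2 fold change was above 0 in 41 of 57 (50.5% of all genes), with a median of 0.28. Ifi27l2a, a relative of Ifi27, had 5.10, 7.26, 10.9 and 10.9 CPM in batch A young, 4.38 and 2.86 CPM in batch B young, 12.3 and 7.95 CPM in batch B old and 1.30, 1.11 and 1.38 CPM in batch C old (log2 fold change 1.46 ± 0.34 (SE), adjusted p = 0.0314 for age by edgeR). Slfn2, a growth regulator best known from immune cells, had 5.49, 9.12, 12.1 and 10.97, then 5.99 and 3.88, 12.6 and 11.9 and 1.24, 1.57 and 1.02 CPM in the same groups (log2 fold change 1.29 ± 0.30 (SE), adjusted p = 0.0337 by edgeR). In both genes replicate 1 was the higher of the old pair of batch B, unlike in Isg15, and batch C old was the lowest group. The sum of the macrophage and leukocyte markers was also higher in replicate 1 than in replicate 2 of batch B old (1448 and 1032 CPM) and lowest in batch C old (219 to 260 CPM). The part of those markers in the differences was not tested.

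Among the most abundant of these genes per kilobase, Ifitm3, which blocks the fusion of entering viruses, had 306 and 298 CPM in the young libraries of batch B and 335 and 397 CPM in batch B old, without overlap but not past the threshold (0.28 ± 0.12, adjusted p = 0.269). Shisa5 (-0.28 ± 0.11, adjusted p = 0.231), Lgals3bp (-0.038 ± 0.16, adjusted p = 0.932) and Psme2, a proteasome activator subunit (0.23 ± 0.14, adjusted p = 0.461), were not past it either.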
